A study of Homo sapiens with 10 samples.

Results

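The brush border peptidases described here are 6 genes, MME, ANPEP, DPP4, GGT1, ENPEP and ACE, chosen for the shared site and activity of their proteins and matched by Ensembl identifier among 61587 genes in the count table. All 6 were found. DPP4, ANPEP, MME, GGT1 and ACE reached the minimum of 200 counts over all samples and were tested among 19006 genes, whereas ENPEP, with 120 counts, did not. The cells were RPTEC/TERT1, human renal proximal tubule epithelial cells (RPTECs) immortalised with telomerase. The series holds bulk RNA-seq of 5 samples given 10 Gy of gamma irradiation from a caesium source and of 5 mock-irradiated controls, with RNA taken at day 7 from cells grown under otherwise the same conditions. The labels give replicate numbers 1 to 5 in each group, which pair the samples. As a model, 1 immortalised line in culture lacks tubular flow and the other cells of the nephron, and the sample labels number the line differently from sample to sample while the design text names a single line. No label says that replicates were separate cultures, so the spread between them may be partly technical.

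The apical surface of the proximal tubule is folded into microvilli, the brush border, which carries membrane-anchored enzymes facing the filtrate. These enzymes cut filtered peptides down to amino acids and small peptides that transporters then take up, and they also switch hormones on or off. Neprilysin (MME) degrades natriuretic peptides, bradykinin and enkephalins, aminopeptidase N (ANPEP) trims neutral residues from the N-terminus, dipeptidyl peptidase 4 (DPP4) removes N-terminal dipeptides and inactivates incretins, and γ-glutamyltransferase 1 (GGT1) opens extracellular glutathione. Aminopeptidase A (ENPEP) converts angiotensin II to angiotensin III, and angiotensin-converting enzyme (ACE) makes angiotensin II and degrades bradykinin. Most are used as markers of differentiated proximal tubule, and MME, ANPEP and DPP4 also carry the leukocyte antigen names CD10, CD13 and CD26.

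After irradiation DPP4 rose about 2-fold in every pair, while the other tested members did not pass the test. DPP4 was the 1 member called among 5 tested (20%), by edgeR with Benjamini-Hochberg adjustment, against 46.6% of all genes tested called in either direction, 23.9% higher and 22.7% lower. The median log2 fold change of the 5 tested members was 0.25, against -0.0098 for all genes tested. The 20% was below the share called in either direction but near the 23.9% called higher. With genes of at least 1 count, 3 of 6 members were called, against 21.5% of all genes. The comparison with the background thus depended on the filter. The 6 genes had no common direction. Values are TMM-normalised CPM, a gene's counts relative to the scaled library total, unless given per kilobase of exon. In bulk RNA, a lower level in every cell and fewer cells with the transcript cannot be told apart.

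**Figure D1:**
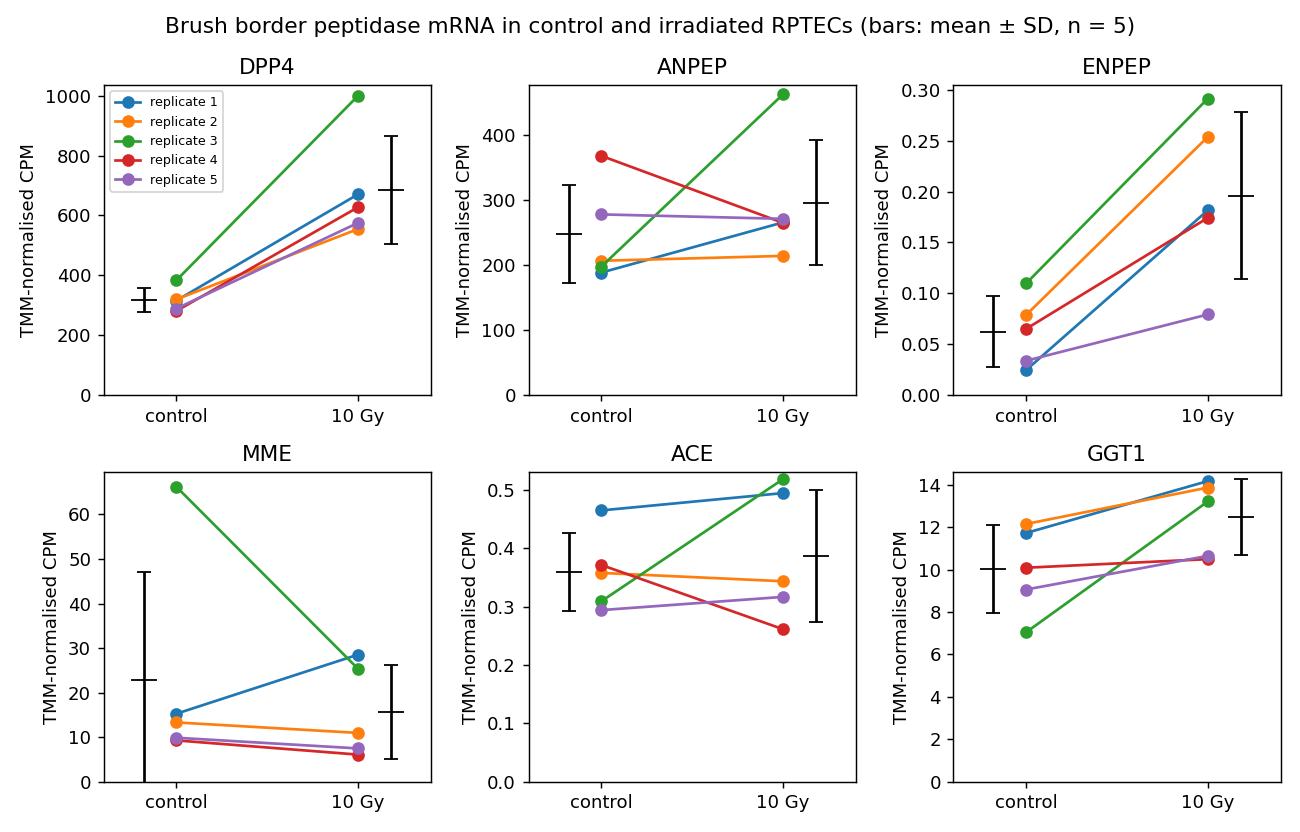
Level of each peptidase mRNA (y axis, TMM-normalised CPM, linear from 0, a different scale in each panel) in the control and 10 Gy samples; lines join samples of the same replicate number and bars give mean ± SD (n = 5; the lower bar of MME controls is clipped at 0). The irradiated point is the higher in all 5 pairs of DPP4, whose groups do not overlap, and of ENPEP and GGT1, whose groups do, and for MME control replicate 3 sits at 66.2 above all other samples.

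Among the tested exopeptidases, DPP4 (ENSG00000197635, chromosome 2, 161992245 to 162074394, minus strand, GRCh38) was the member called. It measured 315, 319, 383, 281 and 289 CPM in control replicates 1 to 5, and 671, 554, 999.8, 627 and 575 CPM in the irradiated replicates of the same numbers. Every irradiated sample lay above every control, a pattern shown by 14.6% of all genes tested in that direction. The group level went from 317 ± 40.3 to 685 ± 181.5 (SD, n = 5), and the fitted log2 fold change was 1.09 (SE 0.082, 95% interval 0.89 to 1.28), or 2.12-fold higher (edgeR with Benjamini-Hochberg adjustment, adjusted p = 6.4e-05). Log2 ratios within pairs ran from 0.80 in replicate 2 to 1.38 in replicate 3. Irradiated replicate 3 was well above the other irradiated samples, and with that pair left out the log2 fold change was 1.02 (adjusted p = 9.4e-05). All 15 alternative settings called DPP4 higher, with log2 fold changes from 0.98 to 1.20.

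ANPEP (ENSG00000166825, chromosome 15, 89784895 to 89815401, minus strand), the broad-range N-terminal exopeptidase of the membrane, varied without a common direction. In controls it measured 188, 207, 197, 368 and 278 CPM in replicates 1 to 5, and in irradiated samples 266, 214, 463, 265 and 271. The groups overlapped, since control replicate 4 was higher than every irradiated sample but replicate 3. Levels were 248 ± 76.1 and 296 ± 96.2 (SD, n = 5), the log2 fold change was 0.25 (SE 0.21, 95% interval -0.25 to 0.75), and the test was not passed (edgeR with Benjamini-Hochberg adjustment, adjusted p = 0.37). Replicate 3 carried most of that positive value: its pair had a log2 ratio of 1.23, and without it the fitted value was 0.014 (adjusted p = 0.94). With both replicates 1 and 3 left out, the sign turned to -0.16 (adjusted p = 0.22).

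ENPEP (ENSG00000138792, chromosome 4, 110365733 to 110565285, plus strand), the acidic-residue aminopeptidase, was near the limit of detection. It gave 2, 11, 11, 7 and 4 counts in control replicates 1 to 5 and 18, 17, 27, 16 and 7 in irradiated ones, or 35 against 85 counts in all. In CPM these were 0.0245, 0.0787, 0.110, 0.0650 and 0.0336 in controls and 0.182, 0.254, 0.292, 0.174 and 0.0792 in irradiated samples. The irradiated sample was higher in 5 of 5 pairs, as for 26.4% of the genes tested, but irradiated replicate 5 fell within the control range. ENPEP entered the fit only under looser filters: with every gene of at least 1 count the log2 fold change was 1.59 (SE 0.32, edgeR with Benjamini-Hochberg adjustment over 44263 genes, adjusted p = 0.00063), where 10.2% of genes were called higher, and with the filterByExpr rule it was 1.62 (adjusted p = 0.0020, 21.3% called higher). ENPEP reached the filterByExpr minimum mostly in irradiated samples, the group where it was higher, so that fit gives no support for a rise.

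MME (ENSG00000196549, chromosome 3, 155024124 to 155183704, plus strand), the endopeptidase of the group, was set apart by a single control. Its controls measured 15.3, 13.3, 66.2, 9.27 and 9.86 CPM in replicates 1 to 5, and its irradiated samples 28.5, 10.9, 25.3, 6.08 and 7.46. Control replicate 3 was more than 4 times any other control, whereas the other 4 controls lay inside the range of the irradiated samples. Levels of 22.8 ± 24.4 and 15.7 ± 10.5 (SD, n = 5) gave a log2 fold change of -0.36 (SE 0.28, 95% interval -1.01 to 0.29), which did not pass (edgeR with Benjamini-Hochberg adjustment, adjusted p = 0.32).

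The MME difference rested on which pairs were included. Within pairs the log2 ratio was 0.90 in replicate 1, -0.28 in replicate 2, -1.39 in replicate 3, -0.61 in replicate 4 and -0.40 in replicate 5, so that irradiated MME was lower in 4 of 5 pairs. Leaving out replicate 3 moved the fitted value to -0.084 (edgeR, adjusted p = 0.80), and leaving out replicate 1, the pair of opposite sign, moved it to -0.68 and past the threshold (adjusted p = 0.030, where 17.7% of genes were called lower). With both left out, the 3 remaining pairs gave -0.43 (SE 0.077, adjusted p = 0.0042), also past the threshold, with 21.3% of genes called lower. When only control replicate 3 was dropped, in a fit without pairing, the sign turned to 0.41 (adjusted p = 0.50). MME was below 0 in every fit that kept the pairing, from -0.68 to -0.084. Neither the size of the difference nor the call held over these settings.

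Controls 1 and 3 also differed from the other controls in proliferation genes. The mean of 22 cell cycle genes on the log2 CPM scale was 3.76 in control replicate 1 and 3.73 in control replicate 3, but 5.00 to 5.08 in replicates 2, 4 and 5, and 2.62 to 3.13 in irradiated samples. The mean of 20 p53 target genes was 5.49 in control replicate 3, 5.21 to 5.24 in the remaining controls and 6.36 to 6.56 after irradiation. After irradiation 20 of the 22 cell cycle genes fell and 17 of the 20 p53 targets rose. Of all genes tested, 22.7% were called lower and 23.9% higher. CDKN1A, the p53-induced cell cycle inhibitor p21, stood at 208 CPM in control replicate 3 and at 66.7 to 80.9 CPM in controls 1, 2, 4 and 5. The part of these differences in the MME values was not tested.

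ACE (ENSG00000159640, chromosome 17, 63477061 to 63498380, plus strand), the dipeptidyl carboxypeptidase, had 366 counts in all. Its CPM in replicates 1 to 5 was 0.465, 0.358, 0.309, 0.371 and 0.294 in controls and 0.494, 0.343, 0.518, 0.261 and 0.317 in irradiated samples. These ranges overlapped over most of their length. The log2 fold change was 0.090 (SE 0.19, 95% interval -0.36 to 0.54; edgeR with Benjamini-Hochberg adjustment, adjusted p = 0.73), and it turned to -0.078 without replicate 3 (adjusted p = 0.75). Of the ACE exon sequence, 23.9% lies under a same-strand protein-coding gene, ENSG00000264813, that held 0 counts. Counting during STAR alignment leaves out reads that overlap 2 genes, so the ACE level may be an underestimate, which was not checked on reads.

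GGT1 (ENSG00000100031, chromosome 22, 24594811 to 24629005, plus strand), a transferase and hydrolase of γ-glutamyl bonds rather than a true peptide-bond peptidase, was slightly higher in each irradiated sample than in its control. The same held for 26.4% of all genes tested. Controls measured 11.7, 12.2, 7.05, 10.1 and 9.06 CPM in replicates 1 to 5, and irradiated samples 14.2, 13.9, 13.2, 10.5 and 10.7. The smallest pair ratio (log2 0.057 in replicate 4) and the largest (0.91 in replicate 3) differed widely, and the groups overlapped. The log2 fold change was 0.33 (SE 0.12, 95% interval 0.051 to 0.61), with an unadjusted p = 0.026 from edgeR and a Benjamini-Hochberg adjusted p = 0.055.

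The GGT1 call depended on the setting. DESeq2 called it (log2 fold change 0.33, adjusted p = 0.027, with 22.5% of genes called higher), and so did edgeR with genes of at least 1 count (0.29, adjusted p = 0.044, with 10.2% called higher) and without replicate 3 (0.19, adjusted p = 0.037, with 24.6% called higher). GGT1 is also the least securely counted member: 56.5% of its exon length lies under a same-strand gene, ENSG00000286070 (80 counts in all), and 46.7% of its 100-base sequences occur in another annotated gene. Most of that share (43.1%) is the same overlapping gene, while GGTLC2 holds 6.27% and the pseudogenes GGT3P and GGT2P 2.98% and 2.57%. The remaining members share at most 1.2% of such sequences, apart from ACE at 19.96%. As for ACE, reads that overlap both GGT1 and ENSG00000286070 would be left out of the counts, so the GGT1 level may also be an underestimate.

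**Figure D2:**
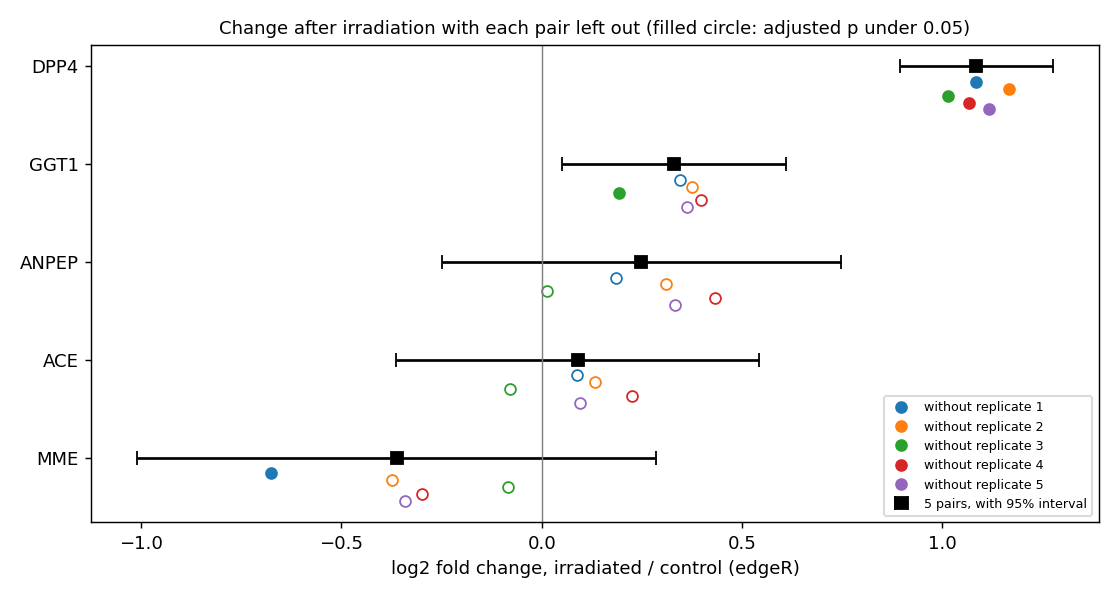
Log2 fold change of irradiated over control RPTECs (x axis, edgeR) for the 5 tested peptidases, with all pairs (black squares, 95% interval) and with each replicate pair left out (circles, filled where the adjusted p was under 0.05). DPP4 stays between 1.02 and 1.17, while MME runs from -0.68 to -0.084 and ANPEP, ACE and GGT1 take their lowest value without replicate 3.

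Compared per kilobase of exon, the order of the levels in 4 of 5 controls was ANPEP, DPP4, GGT1, MME, ACE and ENPEP. ANPEP stood at 49.1 ± 15.1 CPM per kb and DPP4 at 22.0 ± 2.79 (SD, n = 5), and these control ranges did not overlap. MME at 2.31 ± 2.47 and GGT1 at 2.29 ± 0.47 had nearly the same mean, but that of MME rested on control replicate 3 at 6.71. Without replicate 3, MME was 1.21 ± 0.289 (0.939 to 1.55) and GGT1 2.46 ± 0.329 (2.07 to 2.78; SD, n = 4), and GGT1 was above MME in 4 of 5 controls and in 5 of 5 irradiated samples. ACE at 0.0430 ± 0.0080 and ENPEP at 0.0081 ± 0.0045 were far lower and did not overlap each other. In irradiated samples the means were 58.6 for ANPEP, 47.5 for DPP4, 2.85 for GGT1, 1.59 for MME, 0.0462 for ACE and 0.0254 for ENPEP, and the ANPEP and DPP4 ranges then overlapped, as did those of ACE and ENPEP. If only exon sequence outside other genes was counted as length, GGT1 came to 5.26 in controls and 6.56 after irradiation, above MME on average at 2.36 and 1.62.

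The ratio of the 2 exopeptidases with the highest levels per kb separated the groups. The DPP4 to ANPEP ratio of CPM per kb was 0.585, 0.540, 0.678, 0.266 and 0.363 in control replicates 1 to 5 and 0.882, 0.905, 0.755, 0.828 and 0.741 in irradiated ones. Every irradiated ratio was above every control ratio, with means of 0.487 ± 0.168 and 0.822 ± 0.074 (SD, n = 5). DPP4 made up 20.3% to 35.8% of the summed level of the 6 members in controls and 41.2% to 45.1% after irradiation, while the ANPEP share was 52.9% to 76.2% and then 49.8% to 55.5%. The ratio was formed after DPP4 had been seen to rise and is given without a test. With the longest transcript in place of all exons the irradiated ratios ran from 0.954 to 1.17, so which of the 2 mRNAs is more abundant after irradiation depends on the length used.

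**Figure D3:**
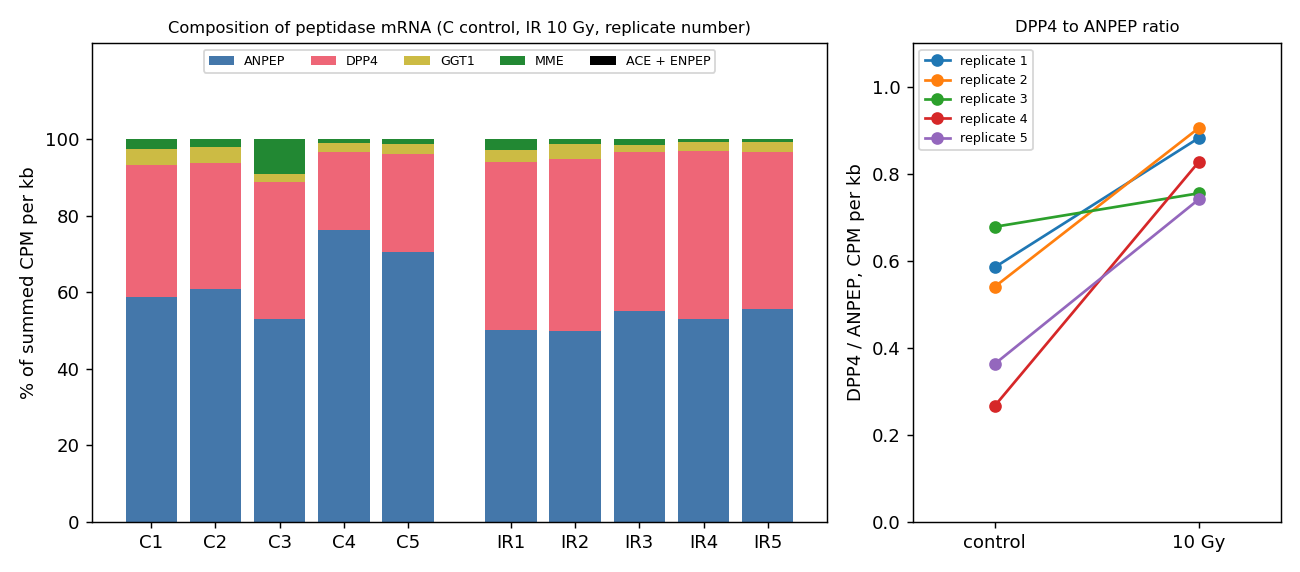
Left, share of each peptidase in the summed CPM per kb of all 6 (y axis, %) in control (C1 to C5) and 10 Gy samples (IR1 to IR5); right, the DPP4 to ANPEP ratio of CPM per kb in each sample, lines joining replicates of the same number. The DPP4 share is above 41% in every irradiated sample and below 36% in every control, and the MME share reaches 9.07% in control replicate 3.

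The nearest patterns to each tested member over the 10 samples, by Pearson r of log2 CPM among 12838 genes, are given as description only, since samples share their treatment and pairing. DPP4 was followed most closely by IQCD (r = 0.994), NIPAL3 (0.993) and SLC52A2 (0.993), and 731 genes had an r above 0.9 with it. MME was closest to RAB3A (0.962), LPCAT4 (0.951) and EXOSC1 (0.943), and ANPEP to the glycyl-tRNA synthetase gene GARS1 (0.949), RNF34 (0.920) and TMEM69 (0.917). GGT1 was closest to TARBP2 (0.956), FAM98C (0.947) and IPO5P1 (0.938), and ACE to FBLN5 (0.886), MXRA8 (0.870) and SRPX2 (0.867). ENPEP was not compared because it was under the count minimum. Genes with an r above 0.9 numbered 21 for MME, 22 for GGT1, 4 for ANPEP and 0 for ACE.

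Genes of the same protein families moved in both directions. Of 30 relatives, 16 were tested, 6 rose, 3 fell and 7 did not pass, with a median log2 fold change of 0.17. The share called was 56.2%, against 46.6% of all genes tested. ECE1, which matures endothelin and belongs with MME to the neprilysin family, was 326 to 366 CPM in controls and 579 to 736 CPM after irradiation, a log2 fold change of 0.89 (edgeR with Benjamini-Hochberg adjustment, adjusted p = 3.9e-05). LNPEP, the oxytocin-cleaving relative of ANPEP, went the other way, from 414 to 660 CPM in controls to 245 to 370 CPM, a log2 fold change of -0.93 (adjusted p = 6.3e-05). AOPEP, another aminopeptidase of that family, also fell (-0.49, adjusted p = 0.0035). The ranges of ECE1 and of LNPEP did not overlap between groups. Of all genes tested, 14.6% were apart in this way with irradiated higher and 12% with irradiated lower.

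The cytosolic DPP4 relative DPP9 rose from 66.9 ± 6.46 to 89.9 ± 7.16 CPM (edgeR with Benjamini-Hochberg adjustment, adjusted p = 0.0056), whereas DPP8 measured 65.2 ± 3.41 and 65.9 ± 3.40 (SD, n = 5; adjusted p = 0.76). The antigen-trimming aminopeptidases ERAP1 and ERAP2 did not pass (adjusted p = 0.098 and 0.87), although ERAP1 did without replicate 2 (0.18, adjusted p = 0.0499) or replicate 3 (0.18, adjusted p = 0.040). FAP, the closest relative of DPP4 and a surface protease of activated fibroblasts, was at 0.0127 CPM in controls and 0.0133 after irradiation. GGTLC2 had a log2 fold change of 1.16 (adjusted p = 0.0027) at 0.145 and 0.323 CPM, and shares sequence with GGT1.

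Of 16 genes listed as other brush border enzymes, 9 were under the count minimum and 7 were tested, of which 3 rose and none fell. The 42.9% called was near the 46.6% of all genes tested, and the median log2 fold change was 0.23. The renal dipeptidase gene DPEP1 and the meprin genes MEP1A and MEP1B averaged at most 0.101 CPM in either group. CLTRN (collectrin), 1 of the 3, is a membrane partner of amino acid transporters rather than an enzyme. It measured 0.416, 0.422, 0.797, 0.594 and 0.538 CPM in control replicates 1 to 5 and 3.27, 2.91, 5.38, 3.47 and 3.35 in irradiated ones. All irradiated samples were several-fold above all controls, with a log2 fold change of 2.73 (SE 0.10, edgeR with Benjamini-Hochberg adjustment, adjusted p = 8.6e-06). Groups were apart with irradiated higher for 14.6% of all genes tested.

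Tissue-nonspecific alkaline phosphatase (ALPL) had a log2 fold change of 3.59 (SE 0.40, adjusted p = 0.00035) at a low level, from 0.0186 to 0.0924 CPM in controls to 0.269 to 1.39 CPM. Carboxypeptidase M, a membrane enzyme that removes C-terminal basic residues, rose from 59.9 ± 14.1 to 91.3 ± 9.60 CPM (SD, n = 5; log2 fold change 0.63, edgeR with Benjamini-Hochberg adjustment, adjusted p = 0.00063). NT5E, the ecto-nucleotidase CD73 that makes adenosine, measured 350 ± 77.2 and 402 ± 17.2 CPM and did not pass (adjusted p = 0.12).

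**Figure D4:**
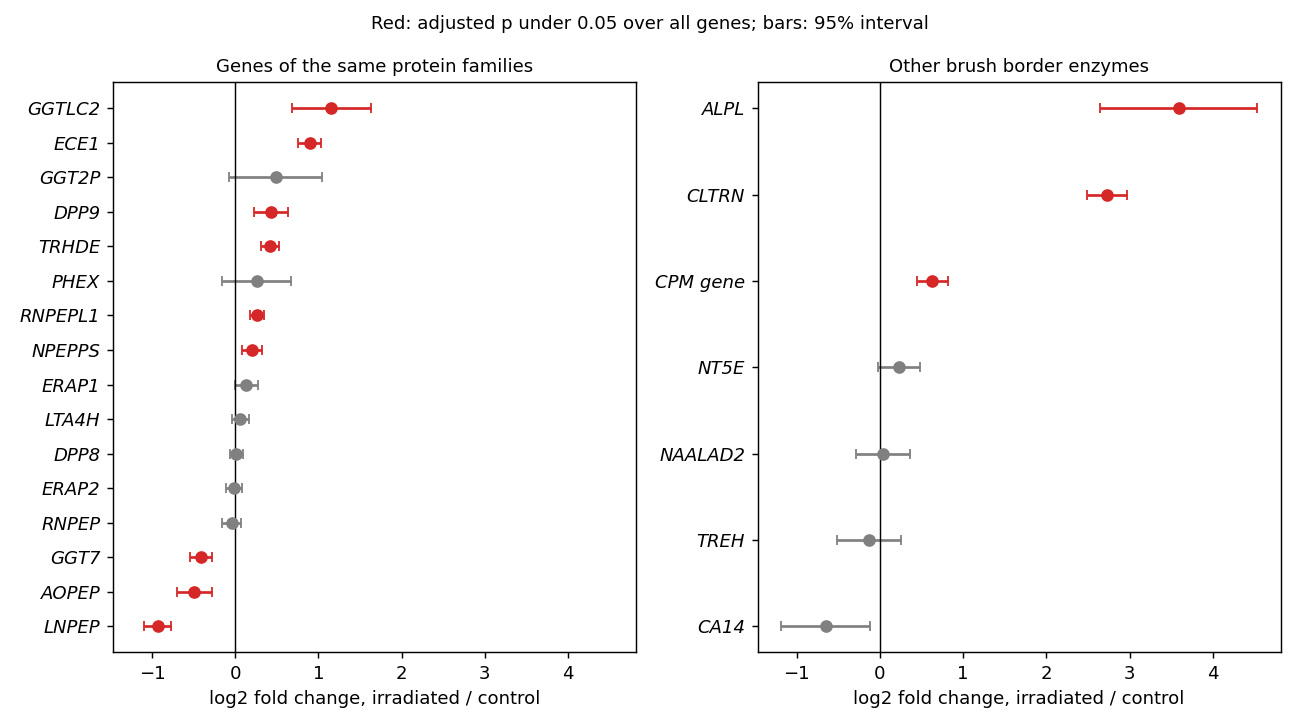
Log2 fold change of irradiated over control RPTECs (x axis, bars 95% interval from edgeR) for the 16 tested relatives of the peptidases and the 7 tested genes listed as other brush border enzymes. Red points had an adjusted p under 0.05 over all genes. The relatives spread on both sides of 0, from LNPEP at -0.93 to GGTLC2 at 1.16, and ALPL at 3.59 and CLTRN at 2.73 lie farthest to the right.

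Of 19 microvillus genes in the table, 16 were tested, 8 rose and 2 fell (62.5% called, against 46.6% of all genes tested). The median log2 fold change was 0.31. Risen were the actin linker EZR (log2 fold change 0.41, edgeR with Benjamini-Hochberg adjustment, adjusted p = 0.012), the scaffold NHERF1 (0.57, adjusted p = 0.00023), PDZK1IP1 (1.12, adjusted p = 3.2e-05) and the apical transport protein MAL2 (0.95, adjusted p = 0.00018). Fallen were the scaffold PDZK1 (-0.70, adjusted p = 0.00062) and the motor MYO7B (-1.67, adjusted p = 0.0056). MYO7B, like MME, was highest in control replicate 3, where it stood at 35.8 CPM while the remaining controls gave 2.98 to 9.47. It was lower after irradiation in all 5 pairs, as were 25% of all genes tested. With the replicate 3 pair left out it still fell (-1.23, adjusted p = 0.00047), as it did with replicates 1 and 3 both left out (-1.18, adjusted p = 0.0011). The call was lost in a fit that dropped both the pairing and control replicate 3 (-1.05, adjusted p = 0.068). The bundler VIL1, villin, was close to 0 in both groups.

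Uptake of the products is carried by peptide and amino acid transporters, of which 8 of 12 were tested. Of these, 3 rose and 4 fell (87.5% called, against 46.6% of all genes tested). The peptide transporters moved in opposite directions. SLC15A1 (PEPT1) rose from between 4.30 and 8.03 CPM to between 12.3 and 21.8 CPM (log2 fold change 1.27, edgeR with Benjamini-Hochberg adjustment, adjusted p = 5.7e-05), and SLC15A2 (PEPT2) fell from between 2.45 and 6.02 CPM to between 0.454 and 1.63 CPM (-1.93, adjusted p = 6.4e-05). The glutamate carrier SLC1A1 rose (0.97, adjusted p = 0.00047) and the imino acid carrier SLC6A20 fell (-1.83, adjusted p = 0.0011). The neutral amino acid carrier SLC6A19 held 0 counts in all samples.

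Of 18 genes for angiotensin and kinin precursors, processing enzymes and receptors, with natriuretic peptide receptors included, 12 were tested. Among them 1 rose and 3 fell (33.3% called, against 46.6% of all genes tested), with a median log2 fold change of 0.03. The bradykinin receptor BDKRB2 was lower after irradiation, at 15.0 to 42.5 CPM in controls and 6.26 to 11.9 CPM in irradiated samples (log2 fold change -1.36, edgeR with Benjamini-Hochberg adjustment, adjusted p = 0.0075). The peptide-processing enzymes PRCP (-0.33, adjusted p = 0.0042) and CTSA (-0.34, adjusted p = 0.040) also fell, and the renin receptor gene ATP6AP2 rose (0.22, adjusted p = 0.0064). The natriuretic peptide receptor NPR1 did not pass (1.07, adjusted p = 0.068). It was higher in 4 of 5 pairs, and control replicate 3 stood at 23.8 CPM while the remaining controls gave 1.44 to 3.38. Without that pair NPR1 passed (1.58, adjusted p = 0.00077). Of the other receptors, the angiotensin II receptor genes AGTR1 and AGTR2 were at or next to 0 counts. Without replicate 3 the CTSA call was lost (-0.21, adjusted p = 0.054), as it was in 6 further settings.

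All 13 genes of glutathione and γ-glutamyl metabolism were tested, of which 4 rose and 3 fell (53.8% called, against 46.6% of all genes tested). No change reached 0.5 on the log2 scale. Glutathione synthetase GSS (0.28, edgeR with Benjamini-Hochberg adjustment, adjusted p = 0.0012), the efflux pump ABCC4 (0.24, adjusted p = 0.0074) and the cystine carrier SLC7A11 (0.32, adjusted p = 0.020) rose. The 5-oxoprolinase gene OPLAH (-0.43, adjusted p = 0.0018) and the rate-limiting synthetic subunit GCLC (-0.21, adjusted p = 0.012) fell. The SLC7A11 call was lost in 6 settings, among them the fits without replicates 1, 4 or 5.

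Of 10 transcription factors of the proximal tubule and early nephron, 7 were tested, 0 rose and 4 fell. That is 57.1% called, against 46.6% of all genes tested, with a median log2 fold change of -0.27. Lower after irradiation were the nephron progenitor factor LHX1 (log2 fold change -1.20, edgeR with Benjamini-Hochberg adjustment, adjusted p = 1.9e-05), the fatty acid oxidation regulator PPARA (-0.57, adjusted p = 0.0083), HNF4G (-0.52, adjusted p = 0.0019) and PAX2 (-0.27, adjusted p = 0.010), and HNF4A, which defines the mature tubule, was at 0 or a few counts in every sample.

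The 250 bases upstream of each RefSeq start site (GRCh38.p14) were searched on both strands for the GC box letters GGGCGG and the TATA box letters TATAAA. The single DPP4 window had a GC content of 73.6%, 2 copies of GGGCGG and no TATAAA. At least 1 GC box occurs in 42.6% of 35116 windows of that length. Its copy 61 bases before the start is shown because DPP4 was the member called, with 12 bases on each side, from chr2:162074259-162074288 on the minus strand. GENCODE places exons under 179 of the 250 bases of this window, and the stretch lies inside the annotated DPP4 gene although it precedes the RefSeq start. Capitals mark the match, which reads CCGCCC because it lies on the other strand:
DPP4: gcgccccggctgCCGCCCagcgccctacac

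The ENPEP window had the lowest GC content among the 12 start sites of the 6 members, at 52%, no GGGCGG, and 2 matches of the TATA box letters TATAAA, found in 10.7% of windows. ACE had 1 such match and 4 GC boxes at its upstream start. These matches describe letters in a window and were not related to the expression values.

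The identity of the cells was checked on markers. Of 12 proximal tubule markers 6 were tested, none rose and 2 fell (33.3% called, against 46.6% of all genes tested). In every sample 7 of the 12 markers were under 1 CPM. Their summed level was 65.7 to 120.2 CPM in controls and 51.5 to 67.6 CPM after irradiation, of which PDZK1 alone made 82.7% to 90.7%. The endocytic receptor genes LRP2 and CUBN differed: LRP2 was at or near 0 in all samples, and CUBN measured 4.37 in controls and 4.76 after irradiation (adjusted p = 0.24). Summed leukocyte markers, relevant because MME, ANPEP and DPP4 are also leukocyte antigens, were 0.798 to 1.16 CPM in controls and 2.05 to 2.7 CPM after irradiation, with 7 of 8 under 1 CPM in every sample. Mean ITGAM went from 0.0436 to 1.24 CPM and mean CD14 from 0.268 to 0.570, while CD68 and CD79A had lower means after irradiation. Summed fibroblast markers were 15.9 to 23.5 and 28.6 to 40.1 CPM with 6 of 8 under 1 CPM in every sample, and endothelial ones were 1.42 to 2.53 and 4.23 to 6.14 CPM with 6 of 8. COL1A1 made up most of the fibroblast sum, at means of 18.8 CPM in controls and 32.15 after irradiation. Among the tested endothelial markers CDH5 rose most, from a mean of 0.596 to 3.31 CPM. Distal tubule markers summed to 104 to 404 and 19.9 to 176 CPM, with 7 of 10 under 1 CPM in every sample. The thick ascending limb transporter gene SLC12A1 made 87.2% to 98.9% of that sum, with 99.9 to 399.6 CPM in controls and 17.3 to 171 CPM after irradiation (log2 fold change -1.80, edgeR with Benjamini-Hochberg adjustment, adjusted p = 0.00012; -1.55 and adjusted p = 0.059 without the pairing). In all controls but replicate 3 it exceeded the whole proximal tubule sum. Podocyte markers summed to 11.0 to 14.02 and 13.0 to 21.3 CPM, with 4 of 6 under 1 CPM in every sample. The part of these differences in the peptidase values was not tested.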

How the data were processed

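Raw RNA-seq counts per gene were deposited by the authors, who trimmed adapters, aligned reads to GRCh38 (hg38) with STAR and counted them during alignment, without normalisation. The labels and the study's methods name different library kits, and the strand setting of the counting is not given in the sources used here; opposite-strand exons cover at most 2.17% of any member. Totals were 66269311 to 131555873 counts per sample, so for abundant members the spread between replicates limits precision, and for ENPEP and ACE counting error does as well.

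Counts were fitted with edgeR 4.0.16 in R 4.3.3 (TMM, glmQLFit, glmQLFTest) on 19006 genes with at least 200 counts in total, with replicate number as a block as in the study's model and Benjamini-Hochberg adjustment over all of them (threshold 0.05). Standard errors are the log2 fold change over the square root of F. Same-numbered samples deviated together (r 0.22 to 0.51), against -0.35 to 0.32 for different numbers. CPM per kb used the union of exons (GENCODE, GRCh38), and promoter windows came from RefSeq. The scripts were tested on simulated data. Alternatives were DESeq2 1.42.0, limma-voom (limma 3.58.1), RLE, upper-quartile and library-size scaling, 2 other filters, no block, and replicates left out. One length alternative, exon sequence outside other genes, was added after seeing the data. Figures were drawn with matplotlib 3.10.9.

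Genes named are all members, up to 4 genes per list with the largest called changes, a few fixed regardless of value (DPEP1, MEP1A, MEP1B, NT5E, ALPL, LRP2, CUBN, HNF4A), and 3 most alike genes per tested member. DPP8, DPP9, ERAP1, ERAP2, FAP, VIL1, EZR, NHERF1, SLC6A19, NPR1, AGTR1, AGTR2, GCLC and SLC12A1 were added after their values were seen. Results of some genes are not reported here. The members and lists were chosen with earlier results of these data known.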

Additional observations from a re-analysis of the deposited data

Results flagged for a closer look

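Among 124 groups of 5 samples examined (members and named genes, apart from those listed for likeness), 16 held a sample whose gap to the nearest other exceeded 0.71 of the group's range. Replicate 3 accounted for 9 of those 16 groups. The nominal chance count of 6.2 is no fair comparison. Groups share the same samples, some genes sit at a few counts, and some genes were added after their values were seen. Among the peptidases, MME was 66.2 CPM in control replicate 3 against 9.27 to 15.3 in the other controls, ANPEP was 463 CPM in irradiated replicate 3 against 214 to 271, and DPP4 was 999.8 CPM in irradiated replicate 3 against 554 to 671. Also high in irradiated replicate 3 were CLTRN at 5.38 CPM (others 2.91 to 3.47) and SLC15A1 at 21.8 CPM (others 12.3 to 13.99). In control replicate 3, MYO7B was 35.8 CPM (others 2.98 to 9.47), PPARA 54.4 CPM (others 30.8 to 34.8), NPR1 23.8 CPM (others 1.44 to 3.38) and CDKN1A 208 CPM (others 66.7 to 80.9). Outside replicate 3, MAL2 was low in irradiated replicate 2 at 312 CPM (others 433 to 472), MEP1B was 0.232 CPM in control replicate 1 (others 0.0504 to 0.0928), and LRP2 was 0.00715 CPM in control replicate 2, with 0 in the other controls. In replicate 2, SLC12A1 was high both in the control at 399.6 CPM (others 99.9 to 149) and in the irradiated sample at 171 CPM (others 17.3 to 46.4). FAP at 0.0448 CPM (others 0 to 0.0109) and AGTR1 at 0.0149 CPM (others 0), both in irradiated replicate 2, rest on a few counts at most.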

How the results depend on the processing

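DPP4 was called higher under all 15 alternatives. The number of members called was 1 of 5 tested with all pairs, where 46.6% of all genes were called. It was 2 of 5 with DESeq2 (43.9% of all genes) and with replicates 1 and 3 both left out (43.9%). With filterByExpr it was 2 of 6 (41.8% of all genes), and with genes of at least 1 count 3 of 6 (21.5%). Leaving out single replicates gave 1 to 2 of 5, where 34.8% to 46.2% of all genes were called. The added calls were GGT1 (DESeq2, at least 1 count, without replicate 3), ENPEP (at least 1 count, filterByExpr) and MME (without replicate 1, without both). ENPEP passed the filterByExpr rule mostly through irradiated samples, so that added call gives no support for a rise. GGT1 was 0.33 with DESeq2 and 0.29 with at least 1 count. MME was -0.43 without replicates 1 and 3 and turned to 0.41 without control replicate 3 in the unpaired fit, and ANPEP and ACE turned to -0.16 and -0.15 without replicates 1 and 3; the cause was not tested. Leaving out single replicates gave -0.68 to -0.084 for MME, 0.014 to 0.43 for ANPEP, 1.02 to 1.17 for DPP4, 0.19 to 0.40 for GGT1 and -0.078 to 0.23 for ACE. Without the replicate block 7006 genes were called instead of 8857, DPP4 was 1.11, and no member's call changed. With library size only, 38% of all calls were higher instead of 51.4%. The control ratio of DPP4 to ANPEP was 0.626 with the longest transcript and 0.492 with exon sequence outside other genes. Of the other named genes, 659 results kept direction and call, 18 lost the call, 6 gained one (NPR1, ERAP1) and 7 reversed, all for values near 0: DPP8 to -0.018 with upper-quartile scaling, -0.062 with library size only and -0.021 with at least 1 count, and ERAP2 to values above 0 without replicates 2, 3 or 5 (range -0.036 to 0.012 over single replicates left out) and to 0.010 without control replicate 3 in the unpaired fit. Counting error limits ENPEP and ACE, and shared sequence limits GGT1.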
